A study of Oryza sativa with 6 samples.

Results

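Rice takes up nitrate at higher external supply mainly through transporters of the NPF family (NITRATE TRANSPORTER 1/PEPTIDE TRANSPORTER family), and 10 genes of this family were followed here in the roots of *OsMYB305*-overexpressing and wild-type plants. They are listed by name and by their MSU locus, a list drawn up with earlier results of these data known: *OsNRT1.1B*, *OsNRT1.1A*, *OsNPF2.4*, *OsNPF2.2*, *OsNPF8.9*, *OsNPF7.3*, *OsNPF7.2*, *OsNPF8.20*, *OsNPF4.1* and *OsNPF7.7*. All 10 were found among the 55982 loci with a value in every library.

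Roots were sampled from OE15 and OE20, which are independent transgenic lines carrying the coding sequence of the R2R3-MYB transcription factor *OsMYB305* under the constitutive CaMV 35S promoter, and from the untransformed WT, cultivar ZH11. The study asked which genes accompany the nitrogen uptake of these lines. Each genotype had 2 libraries, and a line transformed with an empty vector is not among the samples. All plants were 14 days old per the labels and had received 0.288 mM NH4NO3, a low nitrogen supply, in MS solution according to the labels and in Yoshida solution according to the methods of the study. The labels do not say whether the 2 libraries of a genotype came from separate cultures, so p-values measure the spread between these libraries, which may be technical.

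NPF proteins sit in membranes and carry their substrates together with protons. The family is named for nitrate and for di- and tripeptides, but members also carry hormones and other compounds. In roots, some members act in the outer cell layers where nitrate enters, others at the vacuole, and others beside the xylem, where they set how much nitrate is loaded for or withdrawn from transport to the shoot. Members that carry nitrate form the low-affinity side of nitrate uptake, while the NRT2 transporters with their partner protein NAR2 form the high-affinity side.

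The overexpressed gene followed its labels. Levels of *OsMYB305* (LOC_Os01g45090, on chromosome 1) were 150.2 and 148 FPKM in OE15, 81.3 and 80.2 FPKM in OE20, against 0.0388 and 0.0576 FPKM in the WT. FPKM is the number of fragments assigned to a locus per kilobase of transcript and scaled to all mapped fragments of the library, so levels can be compared between genes as well as between libraries. It keeps no read totals. The steps between the lowest values placed the depth of the libraries within 0.984 to 1.36 of that of WT replicate 1, and WT replicate 2 was the deepest. Pearson correlations of log2(FPKM + 0.1) over the 20627 loci tested were 0.984 to 0.988 within a genotype and 0.965 to 0.976 between genotypes. The summed level of 3 loci taken as root markers from general knowledge (LOC_Os02g51110, LOC_Os03g01700 and LOC_Os02g44310, which the sources used here do not annotate) was 3460 to 3536 FPKM in OE15, 3892 to 3967 FPKM in OE20 and 3538 FPKM in both WT libraries. A list of 6 loci for green tissue was also summed. It holds LOC_Os07g05360, LOC_Os04g58200 and LOC_Os02g05830 because the study lists them as changed in these same libraries. That choice partly fixed any difference in the sum and in the calls, so neither is independent support. The sum was 65.8 to 65.9 FPKM in OE15, 61.2 to 63.0 FPKM in OE20 and 93.9 to 94.7 FPKM in the WT. None of the 6 was at 0 in any library. LOC_Os12g19470 went the other way in its means, with 2.07 FPKM in OE15 and 2.63 FPKM in OE20, against 1.87 FPKM in the WT. It was not called in either line. Of the 5 listed loci that were tested, 2 were called lower in OE15 and 2 in OE20. They are LOC_Os07g05360, which the study annotates as a photosystem II polypeptide, and LOC_Os04g58200, annotated as a protochlorophyllide reductase, and the study had listed both as changed in these same libraries. The part of this difference in the transporter values below was not tested. In whole roots, fewer cells that express a gene and less transcript per cell cannot be told apart.

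The 10 transporters differed widely in level. In the WT, *OsNPF2.4* and *OsNRT1.1A* stood at the top with 125 ± 3.33 and 106 ± 4.57 FPKM (SD, n = 2), above 95.3% and 94.4% of the loci tested. *OsNRT1.1B* came next with a mean of 40.3 FPKM. *OsNPF7.7* (25.5 ± 0.206 FPKM) and *OsNPF8.9* (21.9 ± 1.84 FPKM) followed, and *OsNPF8.20*, *OsNPF4.1*, *OsNPF7.2* and *OsNPF7.3* lay between 14.1 and 9.51 FPKM. *OsNPF2.2* was far below the others at 0.861 ± 0.0452 FPKM, so the highest member exceeded the lowest by 145-fold and the next lowest by 13.2-fold. Neighbours in this order whose WT libraries overlapped were *OsNPF8.20* and *OsNPF4.1*, and *OsNPF7.2* and *OsNPF7.3*. The top 3 and the lowest place were held by the same genes in all 3 genotypes, whereas *OsNPF8.9* and *OsNPF7.7* changed places in OE15, where their libraries overlapped.

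**Figure D1:**
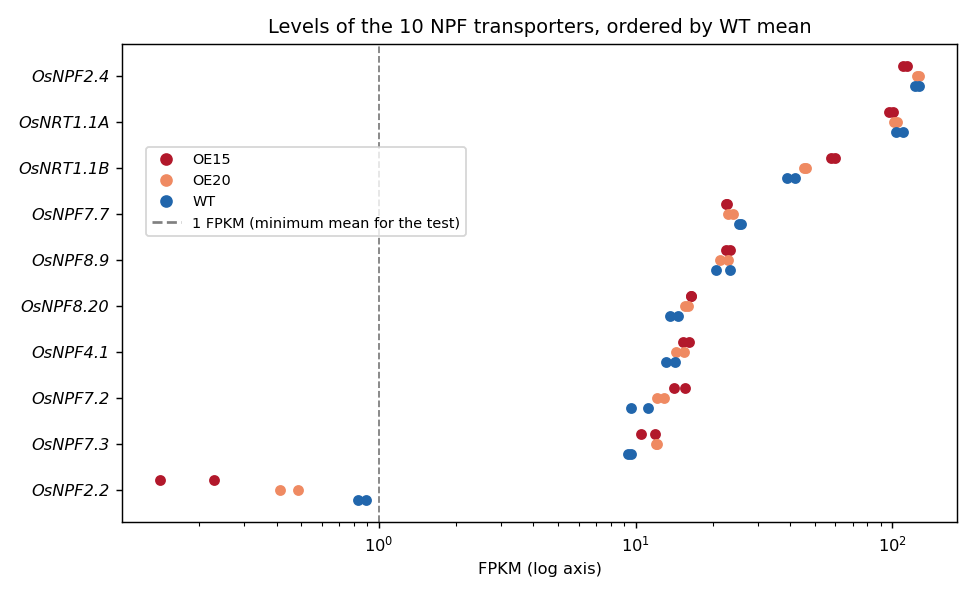
Level of each of the 10 transporters in the 6 libraries, in FPKM on a log axis, ordered from top to bottom by the WT mean; each point is 1 library (red OE15, orange OE20, blue WT), and the dashed line marks 1 FPKM. *OsNPF2.4*, *OsNRT1.1A* and *OsNRT1.1B* form the top of the order, 6 genes lie between 9.38 and 25.7 FPKM, and *OsNPF2.2* lies below 1 FPKM in every library.

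The limma test took in every locus whose level averaged 1 FPKM or more across libraries. A gene was called when it changed by more than 1.5-fold with a Benjamini-Hochberg adjusted p, over all loci, under 0.05. This minimum left 9 of the 10 transporters in the test. *OsNPF2.2*, with a mean of 0.499 FPKM, stayed outside and is described by its values. Fold changes were computed after adding 0.1 FPKM, which understates those of low genes, and every adjusted p is from limma.

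In OE15 against the WT, the transporters shifted in both directions and by less than 1.5-fold. None of the 9 was called, where 5.5% of all loci tested were called. An adjusted p under 0.05 at any fold was reached by 5 of the 9, with *OsNRT1.1B*, *OsNPF7.2* and *OsNPF8.20* higher and *OsNPF2.4* and *OsNPF7.7* lower in OE15. Over all loci that share was 20.4%, with 10.5% higher and 9.89% lower. An unadjusted p under 0.05 was found for 8 of the 9 transporters and for 34.5% of all loci. The libraries of OE15 and the WT did not overlap for 8 of the 9, which was also the case for 62.8% of all loci. Log2 fold changes of the 9 ran from -0.18 to 0.54 with a median of 0.20, beside a median of 0.02 over all loci. The 95% interval lay within 1.5-fold in either direction for 7 of the 9, the exceptions being *OsNRT1.1B* and *OsNPF7.2*, and for 75.9% of all loci. For all of these 5 but *OsNRT1.1B*, the adjusted p under 0.05 depended on single libraries. With 1 library left out, log2 fold changes ran from 0.49 to 0.60 for *OsNRT1.1B*, 0.41 to 0.62 for *OsNPF7.2* and 0.17 to 0.28 for *OsNPF8.20*. They ran from -0.19 to -0.14 for *OsNPF2.4* and from -0.19 to -0.17 for *OsNPF7.7*. The share of all loci is not given for these fits, so they are not read as a result about the transporters.

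In OE20 against the WT, the same WT libraries served as the control, and again none of the 9 transporters was called, where 3.11% of all loci were. *OsNPF7.3*, higher in OE20, was the 1 transporter with an adjusted p under 0.05 at any fold, a share near the 11.9% of all loci. An unadjusted p under 0.05 was found for 5 of the 9 and for 27.4% of all loci, and the libraries of OE20 and the WT did not overlap for 6 of the 9 and for 55.9% of all loci. Log2 fold changes ran from -0.12 to 0.34 with a median of 0.12, beside 0.02 over all loci. All 9 intervals lay within 1.5-fold in either direction, as did 79.5% over all loci. The adjusted p under 0.05 of *OsNPF7.3* depended on single libraries. With 1 library left out, its log2 fold change ran from 0.32 to 0.36. The share of all loci is not given for these fits.

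**Figure D2:**
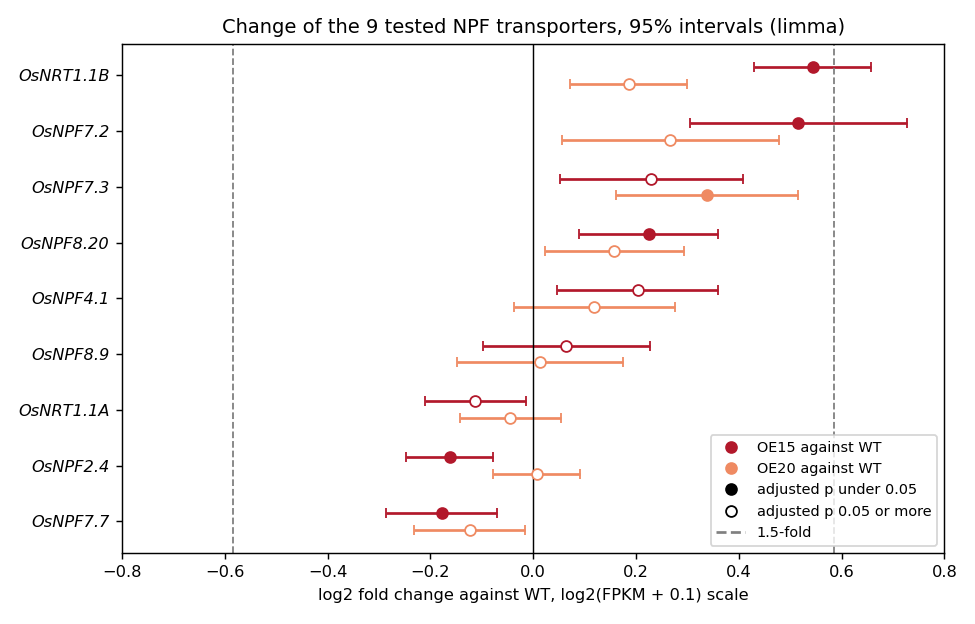
Log2 fold change of each of the 9 tested transporters against the WT, with its 95% interval from limma (x axis, log2(FPKM + 0.1) scale); red points are OE15 and orange points OE20, filled points have an adjusted p under 0.05, and dashed lines mark 1.5-fold. The point estimates lie inside both dashed lines, and the intervals of *OsNRT1.1B* and *OsNPF7.2* in OE15 reach past the upper one.

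The largest difference among the tested transporters was in the NRT1.1 pair. *OsNRT1.1B* (LOC_Os10g40600, chromosome 10) encodes a plasma membrane nitrate transporter that also acts in nitrate signalling, and the form found in *indica* rice is known to raise nitrate use when brought into *japonica* cultivars. It was at 59.8 and 57.6 FPKM in OE15, 45.3 and 46.3 FPKM in OE20, against 38.7 and 41.8 FPKM in the WT. The libraries of the 3 genotypes formed separate pairs, with OE15 highest and the WT lowest. That order was found for 3 of the 9 tested transporters (with *OsNPF7.2* and *OsNPF8.20*) and for 7.02% of all loci, and the reverse order for 1 of the 9, *OsNPF7.7*, and for 5.57% of all loci. In OE15 it was 1.46-fold higher than in the WT (95% interval 1.35 to 1.58, log2 fold change 0.54, standard error 0.048, adjusted p = 0.00046), just short of the limit of 1.5-fold. Without WT replicate 2 the log2 fold change was 0.60 (adjusted p = 0.00137), which passes that limit. In OE20 it was at 1.14-fold of the WT level (95% interval 1.05 to 1.23, adjusted p = 0.0517), a p that dropped to 0.0418 without WT replicate 2.

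*OsNRT1.1A* (LOC_Os08g05910, chromosome 8), a close relative known for its effect on nitrogen use and on the time to maturity, did not share this pattern. It was at 100.2 and 96.6 FPKM in OE15, 101.8 and 104.6 FPKM in OE20, against 103 and 109.7 FPKM in the WT. The OE15 libraries lay below both WT libraries, and OE20 overlapped with the WT. Neither line passed the test: the log2 fold change was -0.11 in OE15 (95% interval -0.21 to -0.01, adjusted p = 0.104) and -0.04 in OE20 (95% interval -0.14 to 0.05, adjusted p = 0.548). Since one gene was higher and the other was not, the ratio of *OsNRT1.1A* to *OsNRT1.1B* within a library was 1.67 and 1.68 in OE15 and 2.25 and 2.26 in OE20, against 2.66 and 2.62 in the WT. These ratios are free of any scaling between libraries. An exact permutation test of 2 libraries against 2 cannot give a two-sided p below 0.333, so the ratios are given without one. No background over all loci is set beside them.

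**Figure D3:**
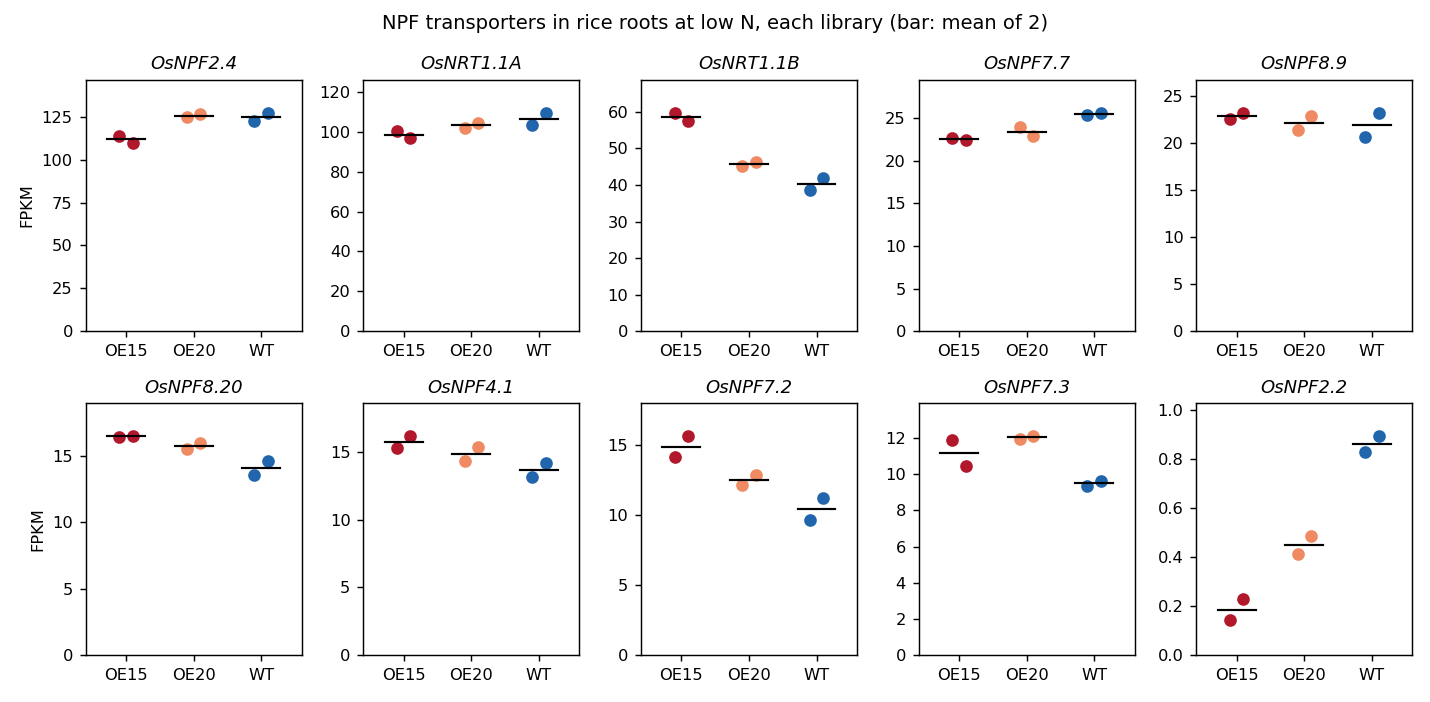
FPKM of each transporter in each library, with 1 panel per gene and its own y axis starting at 0; points are libraries of OE15, OE20 and the WT from left to right, and bars are means of 2. *OsNRT1.1B*, *OsNPF7.2* and *OsNPF8.20* stand highest in OE15 and lowest in the WT, *OsNPF7.7* and *OsNPF2.2* stand in the opposite order, and *OsNPF8.9* overlaps between all 3 genotypes.

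The 2 members of the NPF2 group, which act in moving nitrate within the plant, differed in level and in pattern. *OsNPF2.4* (LOC_Os03g48180, chromosome 3) encodes a low-affinity nitrate transporter with roles in uptake and in long-distance transport between root and shoot. It was at 114 and 109.7 FPKM in OE15, 125 and 126 FPKM in OE20, against 123 and 128 FPKM in the WT. Both OE15 libraries lay below the other 4, and the OE20 libraries lay between the WT libraries. The log2 fold change of *OsNPF2.4* against the WT was -0.16 in OE15 (standard error 0.036, 95% interval -0.25 to -0.08, adjusted p = 0.0202) and 0.01 in OE20 (95% interval -0.08 to 0.09, adjusted p = 0.929). The adjusted p in OE15 was 0.123 without OE15 replicate 2 and 0.082 without WT replicate 2, and it was at the limit without OE15 replicate 1. The small difference in OE20 turned negative under quantile normalization and under median-ratio scaling.

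*OsNPF2.2* (LOC_Os12g44100, chromosome 12) encodes a transporter that withdraws nitrate from the xylem of the root. It was the transporter with the widest spread between genotypes and the one with the lowest level. It was at 0.141 and 0.229 FPKM in OE15, 0.414 and 0.486 FPKM in OE20, against 0.830 and 0.893 FPKM in the WT. Both OE15 libraries lay below both OE20 libraries, and these lay below both WT libraries. The mean of OE15 was 0.215 of the WT mean and that of OE20 was 0.523. On the log2(FPKM + 0.1) scale the differences from the WT were -1.77 and -0.81. When the minimum was dropped and 33842 loci were tested, *OsNPF2.2* was called lower in OE15 (adjusted p = 0.0201), where 1.58% of those loci were called lower, and it was not called in OE20 (adjusted p = 0.157). The 2 OE15 libraries differed from each other by 1.63-fold, the widest replicate gap of any transporter, and FPKM does not show how many fragments lie behind such values. One green tissue locus at a similarly low level, LOC_Os12g17600, was at 0.140 and 0.0684 FPKM in OE15, 0.203 and 0.291 FPKM in OE20, against 0.356 and 0.369 FPKM in the WT, the same order of genotypes. The summed green tissue markers were also highest in the WT and were lowest in OE20. The part of either in this result was not tested.

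Of the remaining nitrate transporters of the root, 1 was higher and 1 was lower in OE15. *OsNPF7.2* (LOC_Os02g47090, chromosome 2), a low-affinity nitrate transporter of the vacuolar membrane in root cells, was at 14.1 and 15.6 FPKM in OE15, 12.1 and 12.9 FPKM in OE20, against 9.60 and 11.2 FPKM in the WT. As for *OsNRT1.1B*, the libraries formed 3 separate pairs with OE15 at the top. Its level in OE15 was 1.43-fold that of the WT (95% interval 1.23 to 1.66, log2 fold change 0.52, standard error 0.0895, adjusted p = 0.00818), and in OE20 the log2 fold change was 0.27 (95% interval 0.06 to 0.48, adjusted p = 0.105). In OE15 the gene lost its adjusted p under 0.05 without OE15 replicate 2 (0.0599) and passed the limit of 1.5-fold without OE15 replicate 1 (log2 fold change 0.59) and without WT replicate 2 (0.62). The 2 WT libraries were 1.16-fold apart.

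*OsNPF7.7* (LOC_Os10g42870, chromosome 10), which is known to promote nitrogen uptake and the outgrowth of tiller buds, moved the other way. It was at 22.6 and 22.5 FPKM in OE15, 24.0 and 22.9 FPKM in OE20, against 25.4 and 25.7 FPKM in the WT. All 4 transgenic libraries lay below the WT libraries, which held for 1 of the 9 tested transporters and for 14.8% of all loci. The level in OE15 was 0.884 of the WT level (95% interval 0.820 to 0.953, log2 fold change -0.18, adjusted p = 0.0350) and that in OE20 was 0.918 (95% interval 0.851 to 0.989, adjusted p = 0.135). The adjusted p in OE15 was between 0.102 and 0.144 when any OE15 or WT library was left out. *OsNPF8.9* (LOC_Os03g13274, chromosome 3), described first as *OsNRT1* and expressed in the root epidermis and root hairs, was at 22.6 and 23.2 FPKM in OE15, 21.4 and 22.9 FPKM in OE20, against 20.6 and 23.2 FPKM in the WT. The 3 genotypes overlapped. The 95% intervals of its log2 fold change were -0.10 to 0.23 in OE15 and -0.15 to 0.18 in OE20, and the adjusted p was 0.552 in OE15 and 0.926 in OE20. Without WT replicate 1 both estimates were below 0.

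Of the 3 remaining genes, *OsNPF7.3* was higher by adjusted p in OE20, *OsNPF8.20* in OE15, and *OsNPF4.1* in neither line. *OsNPF7.3* (LOC_Os04g50950, chromosome 4), also named *OsPTR6* and able to carry di- and tripeptides, was at 11.9 and 10.5 FPKM in OE15, 12.0 and 12.1 FPKM in OE20, against 9.38 and 9.64 FPKM in the WT. All 4 transgenic libraries lay above the WT, which held for 5 of the 9 tested transporters and for 18.9% of all loci. The level of *OsNPF7.3* was 1.26-fold that of the WT in OE20 (95% interval 1.12 to 1.43, log2 fold change 0.34, standard error 0.075, adjusted p = 0.0311) and 1.17-fold in OE15 (95% interval 1.04 to 1.33, adjusted p = 0.0743). The adjusted p in OE20 was between 0.090 and 0.133 when an OE20 or WT library was left out. Its difference from the WT was larger in OE20 than in OE15, but the lines themselves were not separated (log2 difference -0.11, 95% interval -0.29 to 0.07, adjusted p = 0.402).

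*OsNPF8.20* (LOC_Os06g49250, chromosome 6), also named *OsPTR9* and known to promote ammonium uptake and lateral root formation, was at 16.5 FPKM in both OE15 libraries and 15.5 and 16.0 FPKM in OE20, against 13.6 and 14.6 FPKM in the WT. The transgenic libraries again lay above the WT without overlap. The log2 fold change was 0.22 in OE15 (95% interval 0.09 to 0.36, adjusted p = 0.0337) and 0.16 in OE20 (95% interval 0.02 to 0.29, adjusted p = 0.129). In OE15 the adjusted p under 0.05 was kept in 7 of 15 other fits, and it was 0.129, 0.135 and 0.149 without OE15 replicate 1, OE15 replicate 2 and WT replicate 1, and 0.056 without either OE20 library. *OsNPF4.1* (LOC_Os11g12740, chromosome 11), also named *SP1* and known for its control of panicle size, was at 15.3 and 16.2 FPKM in OE15, 14.3 and 15.4 FPKM in OE20, against 13.2 and 14.2 FPKM in the WT. The transgenic libraries lay above the WT, but neither line passed the test (log2 fold change 0.20, 95% interval 0.05 to 0.36, adjusted p = 0.0742 in OE15, and 0.12, 95% interval -0.04 to 0.28, adjusted p = 0.303 in OE20).

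**Figure D4:**
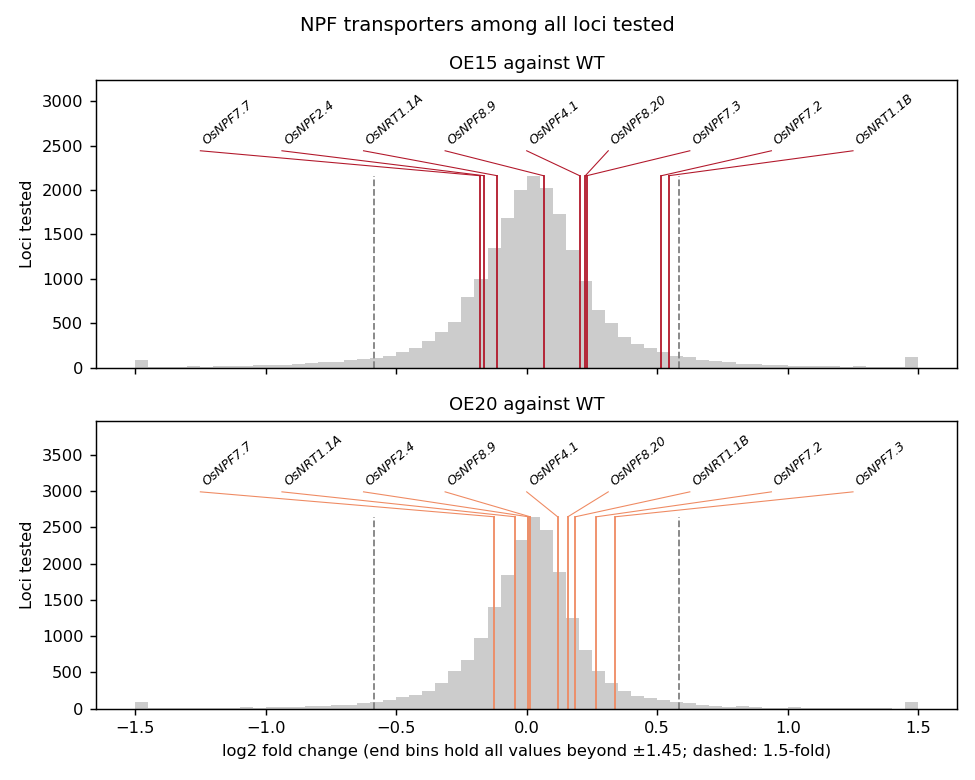
Distribution of the log2 fold changes of all 20627 loci tested (grey bars, number of loci per bin of 0.05, the end bins holding all values beyond them) in OE15 and OE20 against the WT, with the 9 tested transporters as coloured lines and 1.5-fold as dashed lines. In OE15 *OsNRT1.1B* and *OsNPF7.2* lie just inside the upper dashed line, and in OE20 all 9 lie between -0.12 and 0.34.

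Set against all loci, these differences were moderate. The difference of *OsNRT1.1B* between OE15 and the WT was larger in size than that of 91.6% of the loci tested, and that of *OsNPF7.2* larger than that of 90.8%. In OE20 the highest place belonged to *OsNPF7.3*, at 86.6%. For *OsNPF8.9* and *OsNPF2.4* in OE20, only 6.64% and 3.46% of the loci differed less from the WT. Taken without its sign, the log2 fold change had a median of 0.20 over the 9 transporters and 0.14 over all loci in OE15, and of 0.12 and 0.11 in OE20.

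Between the 2 transgenic lines, which differ in their *OsMYB305* level (1.85-fold higher in OE15, adjusted p = 0.000886, and 0.0588 under quantile normalization), none of the 9 transporters was called, where 2.06% of all loci were. An adjusted p under 0.05 at any fold was reached by 2 of the 9 (11.6% of all loci), and an unadjusted p under 0.05 by 3 of the 9 (27.6% of all loci). *OsNRT1.1B* was 1.28-fold higher in OE15 than in OE20 (95% interval 1.18 to 1.39, log2 difference 0.36, standard error 0.048, adjusted p = 0.00591). *OsNPF2.4* was lower in OE15, at 0.889 of its OE20 level (95% interval 0.838 to 0.943, log2 difference -0.17, standard error 0.036, adjusted p = 0.0284). The adjusted p of *OsNRT1.1B* was 0.0511 without OE15 replicate 1 and 0.0541 without OE20 replicate 1, and that of *OsNPF2.4* was between 0.0796 and 0.155 when any OE15 or OE20 library was left out. *OsNPF7.2* was at 1.19-fold in OE15 (95% interval 1.03 to 1.38, adjusted p = 0.127). The libraries of the 2 lines did not overlap for 7 of the 9 transporters and for 57.8% of all loci. All 9 intervals between the lines lay within 1.5-fold, as did 79.9% over all loci.

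The summed level of the 10 transporters overlapped between the 3 genotypes while its make-up was separated. The sum was 377 and 369 FPKM in OE15, 372 and 379.8 FPKM in OE20, against 357 and 378 FPKM in the WT. *OsNPF2.4* and *OsNRT1.1A* together supplied 56.8% and 56.0% of it in OE15 and 61.0% and 60.8% in OE20, against 63.3% and 62.7% in the WT. The share of *OsNRT1.1B* was 15.9% and 15.6% in OE15 and 12.2% in both OE20 libraries, against 10.8% and 11.1% in the WT. These shares weigh each gene by its FPKM and say nothing of protein or transport activity.

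**Figure D5:**
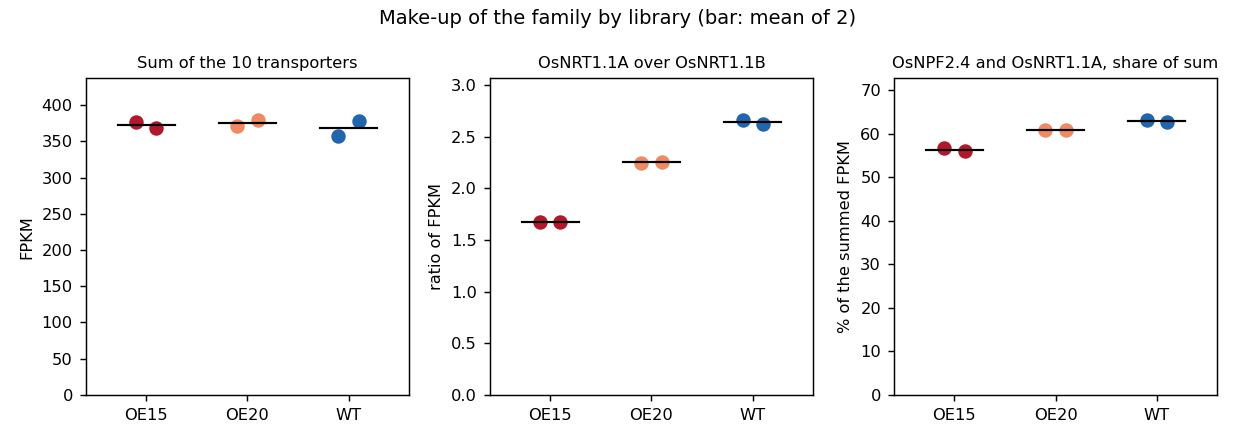
Summed FPKM of the 10 transporters, ratio of *OsNRT1.1A* to *OsNRT1.1B*, and share of *OsNPF2.4* and *OsNRT1.1A* in the sum, for each library of OE15, OE20 and the WT from left to right (points are libraries, bars are means of 2, y axes start at 0). The sums overlap between genotypes, while the ratio lies at 1.67 and 1.68 in OE15, 2.25 and 2.26 in OE20, and 2.66 and 2.62 in the WT.

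Another 4 genes, of high-affinity nitrate uptake and of nitrite reduction, whose loci the study lists among its primers, serve as a comparison list. *OsNRT2.1* (LOC_Os02g02170) and *OsNRT2.2* (LOC_Os02g02190) encode high-affinity nitrate transporters, *OsNAR2.1* (LOC_Os02g38230) their partner protein, and *OsNIR2* (LOC_Os01g25484) a nitrite reductase. In OE15, 2 of the 4 were called higher, where 2.9% of all loci were, none was called lower, and 3 had an adjusted p under 0.05, all higher, where 10.5% of all loci were. In OE20 none of the 4 was called (3.11% of all loci), and 3 had an adjusted p under 0.05, all higher, where 6.4% of all loci were. The study measured these genes by q-PCR and lists *OsNAR2.1* as changed in these libraries, so the list is not independent evidence of its direction. Levels of *OsNRT2.1* were 9.90 and 9.20 FPKM in OE15, 8.10 and 7.75 FPKM in OE20, against 5.81 and 6.07 FPKM in the WT (log2 fold changes 0.68 and 0.41, adjusted p = 0.00115 and 0.0157). *OsNRT2.2* had log2 fold changes of 0.62 and 0.39 (adjusted p = 0.00079 and 0.0107), and its call in OE15 was lost without WT replicate 1 (0.57) and with a pseudocount of 1 (0.58). For both NRT2 genes the adjusted p in OE20 was between 0.0547 and 0.0909 without WT replicate 1 or either OE20 library. The 2 loci are near-identical copies, so reads may be split between them. *OsNAR2.1* was at 126 and 123 FPKM in OE15, 127 and 125 FPKM in OE20, against 86.1 and 91.4 FPKM in the WT (1.40-fold and 1.42-fold, adjusted p = 0.00029 and 0.000454). *OsNIR2* was not separated from the WT (log2 fold change 0.04 and -0.02, adjusted p = 0.740 and 0.869). By q-PCR the study reports it higher in roots of OE15, OE20 and OE23 at low and moderate nitrogen. Its methods name the tillering stage and 3 biological replicates for expression measurements, whereas the labels here give 14 days. The q-PCR and these libraries are therefore not matched in lines or replicates, and may not be in stage. The median log2 fold change of these 4 genes was 0.56 in OE15 and 0.40 in OE20, beside 0.20 and 0.12 for the 9 transporters of the NPF family, and the difference between the lists was not tested.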

How the data were processed

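Expression was measured by RNA-seq in roots of OE15, OE20 and the WT, 2 libraries each. According to the series text and the processing notes, the authors used FastQC 0.11.8 for read quality, Trimmomatic 0.38 for trimming, HISAT2 2.1.0 for mapping and Cufflinks 2.2.1. They deposited FPKM per locus and library, without pooling. The genome build, annotation release, strand setting and treatment of multi-mapping reads are not given in the sources used here, so reads shared by near-identical copies, overlapping genes or antisense genes were not separated. The reference gene list used here does not hold MSU names, so gene names come from the list of members and from the study, and no coordinates or sequences are printed.

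Of the deposited FPKM, 4 repeated locus names were dropped. For the other loci, log2(FPKM + 0.1) was modelled with limma 3.58.1 (R 4.3.3), with a trend, fitting the 3 genotypes together (3 residual degrees of freedom). The spread of each locus was moderated toward that of loci at a similar level (4.02 prior degrees of freedom). Each p therefore rests partly on the spread of other loci. The 20627 loci averaging 1 FPKM or more were tested in 3 contrasts (OE15 and OE20 against the WT, and OE15 against OE20). The procedure was tested on simulated data whose planted changes were larger than those of the tested transporters, so that test says nothing of changes of their size. FPKM holds no counts, so count tests were not run and no counting interval is given. Genes named are the 10 members, *OsMYB305* and 4 nitrate genes of the primer list of the study. Members, lists and tests were chosen with earlier results of these data known. Alternatives were other pseudocounts, minimums, scalings, thresholds and fits, and each library left out in turn.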

Additional observations from a re-analysis of the deposited data

Results flagged for a closer look

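The level of 2 transporters differed between the lines, by the limma contrast of OE15 against OE20. For *OsNRT1.1B* the log2 difference was 0.36 (adjusted p = 0.00591), with both OE15 libraries above both OE20 libraries. For *OsNPF2.4* it was -0.17 (adjusted p = 0.0284), with both OE15 libraries below both OE20 libraries. Both differences are smaller than 1.5-fold. The adjusted p of *OsNRT1.1B* was 0.0511 without OE15 replicate 1 and 0.0541 without OE20 replicate 1, and that of *OsNPF2.4* was between 0.0796 and 0.155 without any 1 of the OE15 or OE20 libraries.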

How the results depend on the processing

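No transporter was called in any of the 3 comparisons, and this held with the replicate block (0 called in each comparison), other pseudocounts, quantile or median-ratio scaling, a minimum of 5 FPKM, separate fits, no trend and an adjusted p under 0.01. Without the limit on the fold change, 5 transporters passed in OE15 against the WT, 1 in OE20 against the WT and 2 between the lines. Without a minimum on FPKM, 1 was called in OE15, *OsNPF2.2*. Leaving out 1 library gave 0 to 2 called in OE15 against the WT (*OsNRT1.1B* and *OsNPF7.2* without WT replicate 2, and *OsNPF7.2* without OE15 replicate 1) and 0 in the other comparisons. With 1 library left in a genotype, that library was assumed to vary like the others. No share of all loci is set beside the counts of these fits, so they are not read as a result about the transporters.

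The mean of the 2 line contrasts had an adjusted p under 0.05 for *OsNRT1.1B* (0.0016), *OsNPF7.2* (0.0148), *OsNPF7.3* (0.0253), *OsNPF8.20* (0.0393) and *OsNPF7.7* (0.0413). With the 4 OE libraries as 1 group, whose error takes in the spread between the lines, no transporter had one (lowest 0.0767, *OsNPF7.3*). No called fold change of a named gene changed sign. Deviations of same-numbered libraries from their group means correlated at -0.07 to 0.03. These values show no strong shift shared by same-numbered libraries, and the labels do not say whether the numbers pair them. With the block, 5 transporters had an adjusted p under 0.05 in OE15, with *OsNPF4.1* gained (0.048) and *OsNPF7.7* lost (0.0523), and 2 in OE20, with *OsNPF7.2* gained (0.0492). Without the trend the counts were 2 and 0. The share of all loci is not given for the mean contrast, the block or the fit without a trend. Their counts are therefore not read as a result about the transporters.

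Over all loci, 1134 were called in OE15, 641 in OE20 and 425 between the lines. A minimum of 5 FPKM gave 586, 336 and 233, no limit on the fold change gave 4217, 2449 and 2387, and an adjusted p under 0.01 gave 393 in OE20 and 245 between the lines. The cause was not tested beyond the change of rule itself. *OsNPF2.2* is limited by its level, since the fragments behind it are unknown.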
